A study of Mus musculus with 18 samples.

Results

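The genes described here are 36 cell cycle and DNA replication genes, picked by symbol for their textbook role in cell division. All 36 were found by gene name among the 35667 genes of the deposited table, and all 36 passed the low-count filter of every comparison. They fall into 5 regulators of the step from G1 to S phase (Ccnd1, Ccnd2, Ccne1, Ccne2, E2f1), 10 genes of DNA replication and nucleotide supply (Mcm2 to Mcm7, Pcna, Rrm2, Tyms, Tk1) and 21 genes of G2 and mitosis (Mki67, Top2a, Ccna2, Ccnb1, Ccnb2, Cdk1, Cdc20, Bub1, Bub1b, Aurka, Aurkb, Plk1, Birc5, Cenpe, Cenpf, Kif11, Kif20a, Tpx2, Nusap1, Ube2c, Prc1).

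In a cell that enters the cycle, D-type and then E-type cyclins with their kinases relieve E2F transcription factors from inhibition by the retinoblastoma proteins. E2F factors switch on genes for origin licensing and DNA synthesis, and a later wave of genes, many with CCAAT boxes and a cell cycle genes homology region (CHR) in their promoters, serves chromosome condensation, spindle assembly and cytokinesis. Hepatic stellate cells (HSC), the vitamin A storing pericytes of the liver, rarely divide in a healthy liver and are known to enter the cycle when they become myofibroblasts. Intrahepatic cholangiocyte organoids (ICO) are epithelial structures grown from bile duct cells in a medium that keeps them dividing.

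RNA of 18 mouse libraries was sequenced in bulk from Smart-seq2 cDNA, 3 libraries in each of 6 groups. HSC from healthy wild-type mice were taken at day 0, directly after isolation, or at day 7 of culture on plastic, alone in Matrigel (a basement membrane gel) or in Matrigel together with ICO. ICO carried the red fluorescent protein dTomato and were taken at day 7 of culture in Matrigel, alone or together with HSC, and the cells were sorted after the culture. The labels state a single medium for all groups, a mixture with fetal serum and the growth factors EGF, FGF10, HGF and RSPO3 (an amplifier of Wnt signalling), so every cultured group received mitogens. The age and sex of the mice, their number, and whether the organoids were a single line are not stated in the labels. Nor do the labels say what a replicate number stands for, so the 3 libraries of a group could be technical replicates. The p-values refer to the spread between libraries within groups, estimated jointly over all groups of a fit.

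Total counts ranged from 6907479 to 22158674 per library, with 19057 to 22512 genes detected. The cell type labels were checked on marker genes, with 12 stellate markers summing to 8166 to 68797 CPM (counts scaled to a common library size) in HSC libraries and to 3.87 to 114 CPM in ICO libraries. Cholangiocyte transcripts were also present in HSC libraries from Matrigel. HSC alone were set against the separate cultures of ICO alone, and co-cultured HSC against co-cultured ICO. The median level of 16 cholangiocyte genes, relative to that ICO mean, was 33.4%, 13.6% and 2.75% in the libraries of HSC alone (replicates 1 to 3). In those of co-cultured HSC it was 28.0%, 15% and 42.6%. This organoid share was at most 0.254% at day 0 and 0.0723% on plastic. The name stands for the measure only. The labels do not say how cholangiocyte transcripts came into HSC libraries, also those of HSC cultured without organoids, and their source was not tested. Day 0 libraries also held hepatocyte markers (12 genes, 20037 to 20811 CPM in sum, against at most 147 CPM in all other libraries), and HSC alone in Matrigel held the highest sums of 14 macrophage markers (2484 to 3421 CPM, against 913 to 963 at day 0, 114 to 513 on plastic and 129 to 206 in co-cultured HSC). The sums of 10 endothelial markers were 3122 to 3149 CPM at day 0, 829 to 1025 on plastic, 1093 to 1715 in HSC alone in Matrigel and 413 to 634 in co-cultured HSC. In bulk RNA, a change in the fraction of dividing cells and a change in RNA per dividing cell cannot be told apart.

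Freshly isolated HSC held little RNA of the mitotic genes. Mki67 (ENSMUSG00000031004), which encodes the Ki-67 protein of the chromosome surface in cycling cells, stood at 1.56, 2.12 and 1.71 CPM in replicates 1, 2 and 3 at day 0. On plastic it reached 15.9, 21.8 and 13.4 CPM, in HSC alone in Matrigel 24.9, 13.3 and 11.8 CPM, and in co-cultured HSC 33.9, 29.8 and 23.8 CPM. ICO alone had 23.5, 21.2 and 17.6 CPM, and co-cultured ICO 8.14, 6.01 and 14.9 CPM. Every cultured library thus lay above every day 0 library, and the co-cultured HSC libraries lay above all co-cultured ICO libraries. Group means over 3 libraries were lowest at day 0 for 31 of the 36 genes, including 21 of 21 genes of G2 and mitosis. The highest group mean fell in co-cultured HSC for 16 genes, in ICO alone for 11 and in plastic HSC for 9.

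**Figure D1:**
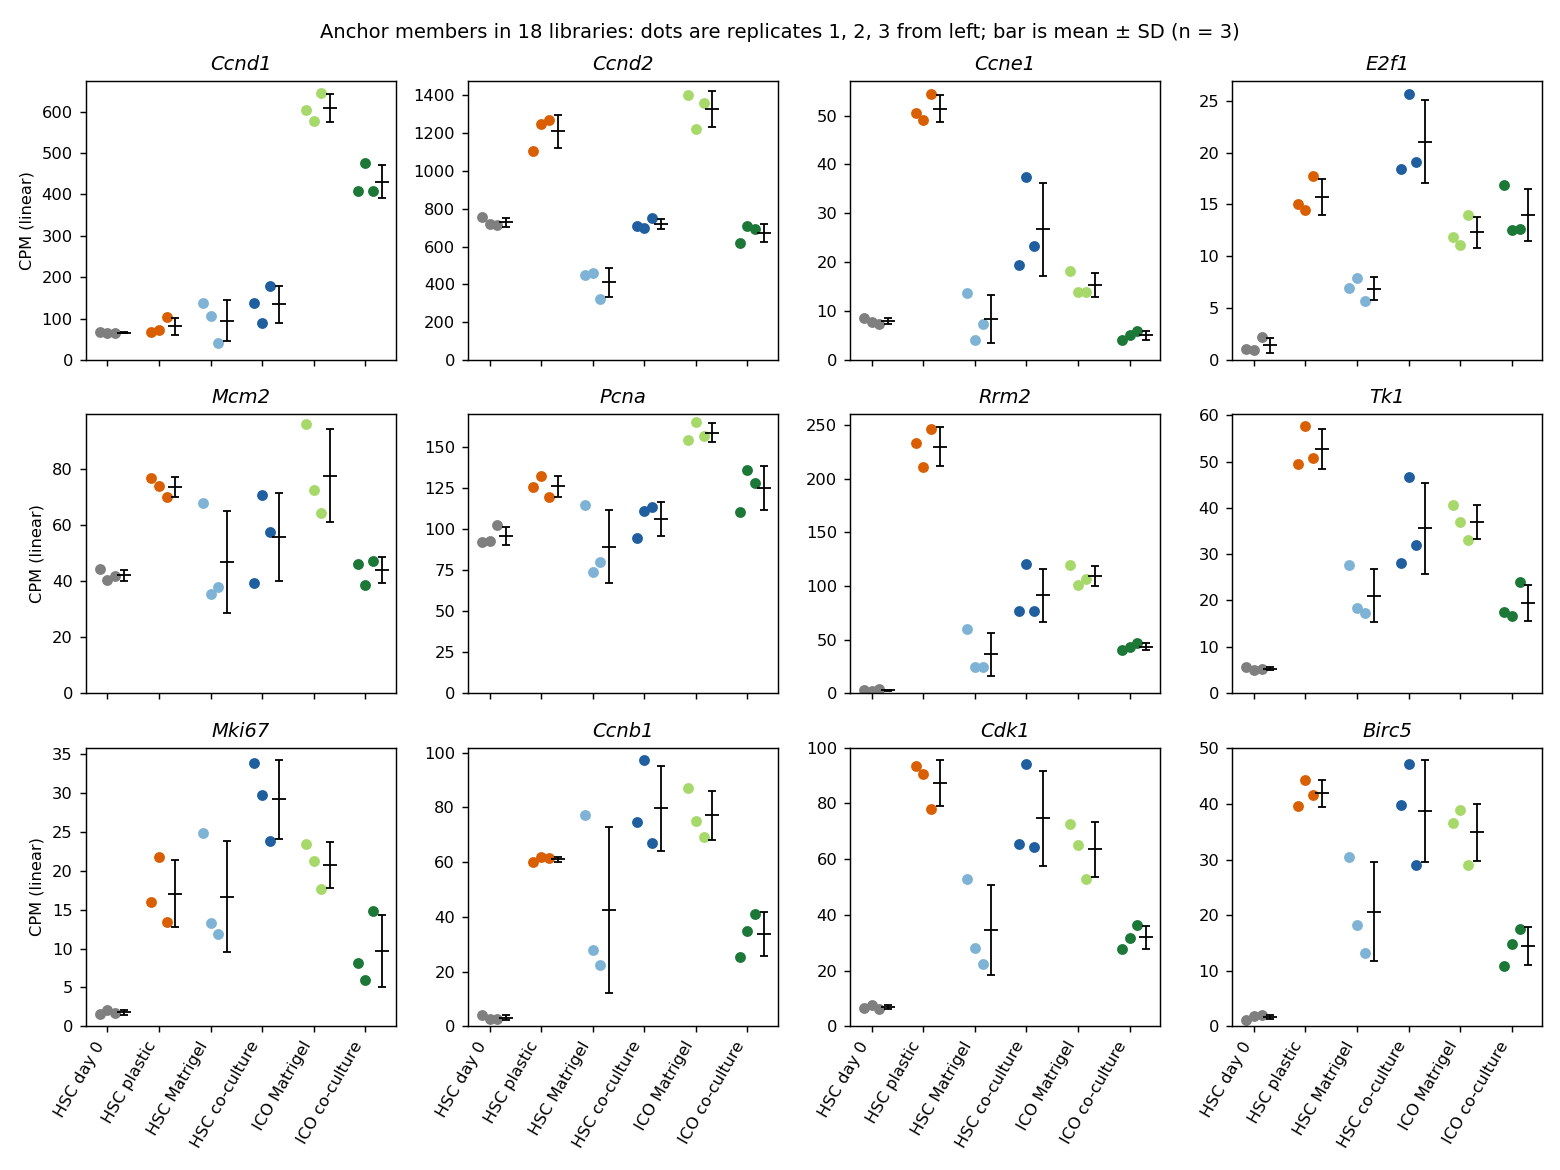
Level in CPM (linear axis) of 12 of the 36 genes in the 18 libraries, 1 panel per gene, with dots for replicates 1, 2 and 3 from left to right in each group and a bar for the mean ± SD (n = 3). Mki67, Cdk1, Ccnb1 and Birc5 are at their lowest at day 0 and lower in co-cultured ICO than in ICO alone, while Rrm2 peaks on plastic (mean 230.01 CPM) and Ccnd1 in ICO alone (mean 609 CPM).

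Nearly the whole set was higher after culture on plastic. Of the 36 genes, 34 were higher at day 7 on plastic than at day 0, none was lower, and 2 (Mcm4 and Ccnd1) did not pass the test, where 58% of all 17020 genes tested were called and 27.5% were called higher. The test throughout was edgeR's quasi-likelihood test with Benjamini-Hochberg adjustment over all genes and a threshold of 0.05, and each change is a log2 fold change from the fit with its standard error (SE) after the sign ±. The median change was 3.39 over the 36 genes against -0.10 over all genes, and in CPM the plastic mean was a median of 10.1 times the day 0 mean (range 1.11 to 97.4). Rrm2 (ENSMUSG00000020649), the regulated subunit of ribonucleotide reductase, which makes deoxyribonucleotides, went from 2.58, 2.18 and 3.43 CPM at day 0 to 233, 211 and 246 CPM on plastic. Its change of 6.45 ± 0.41 (adjusted p = 1.36e-07) was the largest among the replication genes. Bub1, a kinase of the spindle checkpoint, had 9 counts in all at day 0 (0.313, 0 and 0.343 CPM) and 21.5, 19.6 and 22.7 CPM on plastic, a change of 6.63 ± 0.58 (adjusted p = 7.41e-07) that rests on that low base. The groups did not overlap for either gene.

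The regulators of entry into S phase were less uniform. E2f1 (ENSMUSG00000027490), an activating E2F factor, rose from 1.01, 0.976 and 2.23 CPM to 15.1, 14.4 and 17.7 CPM on plastic (3.52 ± 0.32, adjusted p = 6.83e-07). Ccne1 (ENSMUSG00000002068), or cyclin E1, rose from 8.52, 7.85 and 7.40 CPM to 50.5, 49.2 and 54.5 CPM (2.76 ± 0.35, adjusted p = 2.01e-05). Cyclin D1 behaved otherwise, since Ccnd1 (ENSMUSG00000070348) stood at 67.0, 64.3 and 66.1 CPM at day 0 and at 67.2, 71.8 and 103 CPM on plastic, with a change of 0.35 ± 0.38 (adjusted p = 0.447). Ccnd2 (ENSMUSG00000000184), the cyclin D2 gene, rose from 755, 718 and 712 CPM to 1108, 1248 and 1271 CPM (0.79 ± 0.14, adjusted p = 0.000298). The replication genes rose unevenly. Pcna (ENSMUSG00000027342), the sliding clamp of DNA polymerases, had 92.1, 92.9 and 102 CPM at day 0 and 126, 133 and 119 CPM on plastic (0.45 ± 0.15, adjusted p = 0.0158). Mcm2 (ENSMUSG00000002870), a helicase subunit, had 44.3, 40.3 and 41.9 CPM and then 76.8, 74.2 and 69.9 CPM (0.86 ± 0.23, adjusted p = 0.00564). Mcm6, another helicase subunit, had 7.51, 11.1 and 10.3 CPM and then 86.1, 84.1 and 75.0 CPM (3.14 ± 0.43, adjusted p = 9.76e-05). None of these 3 genes overlapped between the groups. The changes of the 21 genes of G2 and mitosis lay between 2.70 and 6.63.

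Against the same day 0 libraries, 29 genes were higher and 1 (Ccnd2) lower in HSC alone in Matrigel, where 40.8% of all genes were called, 19.3% higher and 21.5% lower. In co-cultured HSC 32 genes were higher than at day 0 and none lower, beside 28.9% and 24.8% of all genes (53.7% in either direction). These 3 comparisons share their day 0 libraries, so their values stand side by side. All 21 genes of G2 and mitosis were higher in each of them, with median changes of 3.66 on plastic, 3.22 alone in Matrigel and 4.28 in co-culture. The 10 replication genes had median changes of 1.89, 1.25 and 1.75, with 9, 6 and 7 called higher. Tk1 (ENSMUSG00000025574), thymidine kinase, is an example: from 5.59, 5.10 and 5.21 CPM at day 0 it reached 49.5, 57.6 and 50.8 CPM on plastic, 27.7, 18.3 and 17.2 CPM alone in Matrigel and 28.1, 46.6 and 31.9 CPM in co-culture. Mcm2, Mcm4 and Pcna passed in neither Matrigel comparison. Ccnd2 fell by 0.82 ± 0.14 alone in Matrigel (adjusted p = 0.00046), to 451, 458 and 323 CPM. With the organoid share subtracted, Ccnd2 was no longer called, and no gene of the set was called lower in that comparison. The fitted Ccnd2 change nevertheless stayed below 0 in all 12 alternative settings (-1.76 to -0.69). In replicate 1 the organoid share times the level in ICO alone came to 98.2% of the Ccnd2 level. Beside these counts, the hepatocyte marker sum was 20037 to 20811 CPM in the day 0 libraries and at most 147 CPM in the others. All 10 endothelial markers were also lower than at day 0 in each of the 3 comparisons. The part of hepatocyte and endothelial transcripts in the day 0 values was not tested.

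**Figure D2:**
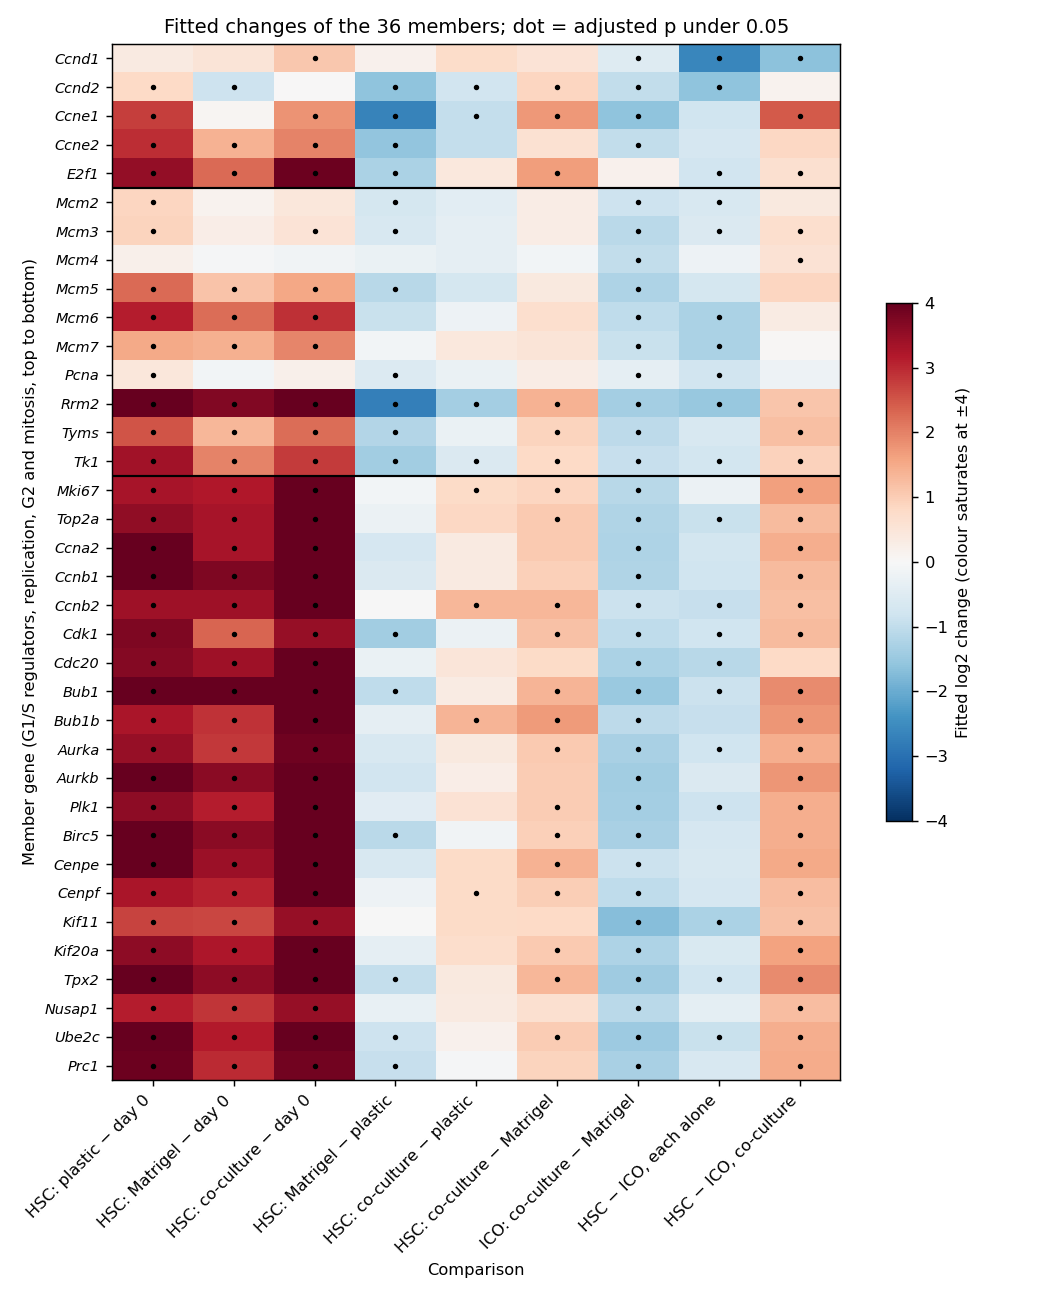
Fitted log2 change of each of the 36 genes (rows, with lines between G1/S regulators, replication, and G2 and mitosis) in 9 comparisons (columns), red for higher and blue for lower in the group named first, with a dot where the adjusted p is under 0.05. Against day 0 the lower block is red in all 3 columns, and the column for ICO in co-culture is blue with dots for 35 genes.

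Since the median changes of replication and mitotic genes differed in size, their promoters were searched for the motifs known from each wave. RefSeq windows of 250 bases before a transcript start (build GRCm38.p6, not the build of the counts) were at hand for 28 of the 36 genes, in 30 windows. Searched on both strands were E2F-type sequences (TTCCCGC as the first form, TTGGCGC as the second, TTCGCGC as the third and TTGCCGC as the fourth), the CCAAT box (CCAAT) and the CHR (TTTGAA). An E2F-type match lay in 5 of 10 replication windows (50%) and in 3 of 18 windows of G2 and mitosis (16.7%), against 7.89% of all 32841 promoter windows. The CHR showed the opposite split, with 1 of 10 replication windows (10%), 8 of 18 windows of G2 and mitosis (44.4%) and 16% of all windows. CCAAT boxes were common in both, in 8 of 10 (80%) and 16 of 18 windows (88.9%), against 33.9% of all windows. The 2 windows of G1/S regulators (Ccne1 and E2f1) held no match to any of the motifs. Each precedes 1 annotated start of its gene, and whether that is the start used in these cells was not tested. Sequence before any other start of Ccne1 or E2f1 was not searched, so a lack of motifs in their promoters cannot be read from this. Windows are not genes: the 10 replication windows belong to 9 genes and the 18 of G2 and mitosis to 17. Both windows of Mcm7 hold an E2F-type match, and those of Prc1 overlap. A match is a description of these letters and not evidence of binding. E2F-type matches on opposite strands overlap one another in Mcm5 and Mcm6, and the match in Ccnb1 overlaps a CCAAT box. The 5 windows below were chosen to show each arrangement, 5′ to 3′ on the gene's strand with matches to any of the motifs in capitals. The first pair belong to subunits of the replicative helicase and carry E2F-type sequences (chr8:75109259-75109508, plus strand, for Mcm5, and chr1:128359706-128359955, minus strand, for Mcm6).
Mcm5: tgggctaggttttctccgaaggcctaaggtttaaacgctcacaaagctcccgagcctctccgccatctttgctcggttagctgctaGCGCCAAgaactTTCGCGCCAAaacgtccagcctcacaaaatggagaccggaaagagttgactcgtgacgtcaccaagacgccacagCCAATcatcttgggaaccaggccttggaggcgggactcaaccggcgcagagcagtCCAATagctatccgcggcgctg
Mcm6: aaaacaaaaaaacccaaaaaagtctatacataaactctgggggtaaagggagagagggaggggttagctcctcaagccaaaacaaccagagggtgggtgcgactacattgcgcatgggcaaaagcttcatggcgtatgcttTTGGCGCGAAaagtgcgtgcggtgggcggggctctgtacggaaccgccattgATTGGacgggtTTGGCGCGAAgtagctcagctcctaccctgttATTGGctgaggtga
Cdk1, the kinase that drives entry into mitosis, holds all 3 kinds of motif (chr10:69352913-69353162, minus strand).
Cdk1: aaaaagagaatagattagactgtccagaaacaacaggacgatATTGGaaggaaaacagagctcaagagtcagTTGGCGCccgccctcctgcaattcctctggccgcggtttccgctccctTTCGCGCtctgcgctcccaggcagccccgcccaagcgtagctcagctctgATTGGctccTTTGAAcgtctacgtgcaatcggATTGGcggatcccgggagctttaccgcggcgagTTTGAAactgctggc
Top2a, the topoisomerase that untangles sister chromatids, and Ccnb2, cyclin B2, hold CCAAT boxes and matches to the CHR sequence but no E2F-type match (chr11:99024190-99024439 and chr9:70421555-70421804, both minus strand). The only such CHR match in Ccnb2 lies upstream of its CCAAT boxes, at -167 from the start, and whether it is a working CHR was not tested.
Top2a: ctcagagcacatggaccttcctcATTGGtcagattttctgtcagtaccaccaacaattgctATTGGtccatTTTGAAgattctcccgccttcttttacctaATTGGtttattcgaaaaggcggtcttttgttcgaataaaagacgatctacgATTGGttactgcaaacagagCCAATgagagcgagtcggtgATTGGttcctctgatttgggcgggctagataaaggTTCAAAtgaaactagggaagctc
Ccnb2: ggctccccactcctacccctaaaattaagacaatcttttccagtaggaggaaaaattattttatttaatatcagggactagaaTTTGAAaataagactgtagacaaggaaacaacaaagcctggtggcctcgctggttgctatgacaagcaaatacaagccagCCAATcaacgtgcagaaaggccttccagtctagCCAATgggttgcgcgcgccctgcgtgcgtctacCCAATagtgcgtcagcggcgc

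Within day 7 HSC, most genes of G1/S and replication were lower in HSC alone in the gel than on plastic. Alone in Matrigel 17 of the 36 genes were lower than on plastic and none higher, where 55% of all genes were called, 25.2% lower and 29.9% higher, with a median of -0.67 over the 36 genes and 0.14 over all genes. By class, 4 of 5 G1/S regulators, 7 of 10 replication genes and 6 of 21 genes of G2 and mitosis were lower. Rrm2 had 59.7, 23.9 and 24.7 CPM alone in Matrigel, all below the 3 plastic libraries (-2.73 ± 0.33, adjusted p = 3.69e-05). Ccne1 had 13.7, 4.09 and 7.34 CPM there, also below plastic in every library (-2.68 ± 0.35, adjusted p = 4.02e-05). Mki67 overlapped with plastic in its libraries, with a change of -0.10 ± 0.28 (adjusted p = 0.787). Replicate 1 of HSC alone in Matrigel was the highest of its group for 34 of 36 genes and also had the highest organoid share of that group. Without replicate 1, 31 genes were lower than on plastic, and without replicate 2, 10 were. Among co-cultured HSC the order was otherwise. Replicate 3 had the highest organoid share there (42.6%) and was the lowest of its group for 26 of 36 genes.

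Few genes differed between co-cultured and plastic HSC. A total of 4 genes were higher and 4 lower, beside 22.9% and 19.6% of all genes (42.5% in either direction). The 4 higher genes all belong to G2 and mitosis: Bub1b, the BubR1 checkpoint kinase (1.35 ± 0.46, adjusted p = 0.0344), Ccnb2 (1.31 ± 0.34, adjusted p = 0.00865), Cenpf, a kinetochore protein, and Mki67. The 4 lower genes were Ccne1, Ccnd2, Rrm2 and Tk1. Rrm2 had 76.7, 120 and 76.6 CPM in co-cultured HSC, all below plastic (-1.35 ± 0.31, adjusted p = 0.00459). For Ccnb2 the co-culture libraries had 73.4, 85.3 and 52.9 CPM and the plastic libraries 27.9, 25.3 and 31.2 CPM, again without overlap. The count of 8 came down to between 3 and 5 without co-culture replicate 1 or 3 or any 1 plastic library, and it was 15 when only these 6 libraries were fitted. The calls of Ccnb2 and Rrm2 held in all 12 alternatives tried.

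Co-culture with organoids went with higher levels in HSC than culture alone in the same gel. Of the 36 genes, 20 were higher, none lower and 16 not called, where 17.3% of all genes were called higher and 13.8% lower, and the median change was 0.96 against 0.03 over all genes. Called higher were 14 of 21 genes of G2 and mitosis, 3 of 5 G1/S regulators (Ccnd2, Ccne1, E2f1) and 3 of 10 replication genes (Rrm2, Tyms, Tk1), and 0 of the 6 MCM subunits. In CPM the co-culture mean was a median of 1.88 times that of HSC alone (range 0.903 to 3.19). E2f1 had 6.97, 7.88 and 5.69 CPM alone and 18.4, 25.6 and 19.0 CPM in co-culture, with no overlap (1.66 ± 0.28, adjusted p = 0.000561). Ccne1 went from 13.7, 4.09 and 7.34 CPM to 19.4, 37.4 and 23.3 CPM (1.72 ± 0.34, adjusted p = 0.00201). Cdk1 (ENSMUSG00000019942) had 53.0, 28.2 and 22.5 CPM alone and 65.6, 94.3 and 64.2 CPM in co-culture (1.16 ± 0.25, adjusted p = 0.00403). The co-cultured libraries were above all libraries of HSC alone for these 3 genes, and for 12 of the 36 genes in all, where 19.6% of all genes showed such a separation upwards. Ccnb1 (ENSMUSG00000041431), the cyclin partner of Cdk1, did overlap: it had 77.2, 27.8 and 22.4 CPM alone and 74.6, 97.1 and 67.2 CPM in co-culture (0.96 ± 0.38, adjusted p = 0.077). Birc5 (ENSMUSG00000017716), or survivin, a subunit of the chromosomal passenger complex, had 30.4, 18.2 and 13.3 CPM and then 39.9, 47.2 and 29.1 CPM (0.96 ± 0.26, adjusted p = 0.014).

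This count depended on single libraries. It was 34 without replicate 1 of HSC alone, 7 and 9 without replicates 2 and 3 of that group, 13 and 9 without co-culture replicates 1 and 2, and 9 when only these 6 libraries were fitted. The share of all genes called in these fits is not given beside the counts. A shift over all genes therefore cannot be told from one of the set. Ccne1, Cdk1, E2f1, Rrm2 and Tpx2, a spindle assembly factor, kept their calls in all 12 alternatives. The organoid share and macrophage markers moved with the comparison. The organoid share was multiplied by the level in ICO alone for HSC alone, and in co-cultured ICO for co-cultured HSC. This came to a median of 38.2%, 32.7% and 7.33% of the level of the 36 genes in the libraries of HSC alone (replicates 1 to 3). In those of co-cultured HSC it came to 12.6%, 5.29% and 23.4%. With that amount subtracted from every gene and library, 28 genes were higher in co-culture and none lower, with a median change of 1.42. Macrophage markers were lower in co-cultured HSC for 12 of 14 genes, with sums of 129 to 206 CPM against 2484 to 3421 CPM. Clec4f, 1 of these 14 genes and a marker of resident liver macrophages, was at 0 counts in all 3 co-culture libraries and at most 0.396 CPM in HSC alone. It was thus near the floor in both groups, and no kind of macrophage is read from it. The part of macrophage transcripts in the result was not tested.

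**Figure D3:**
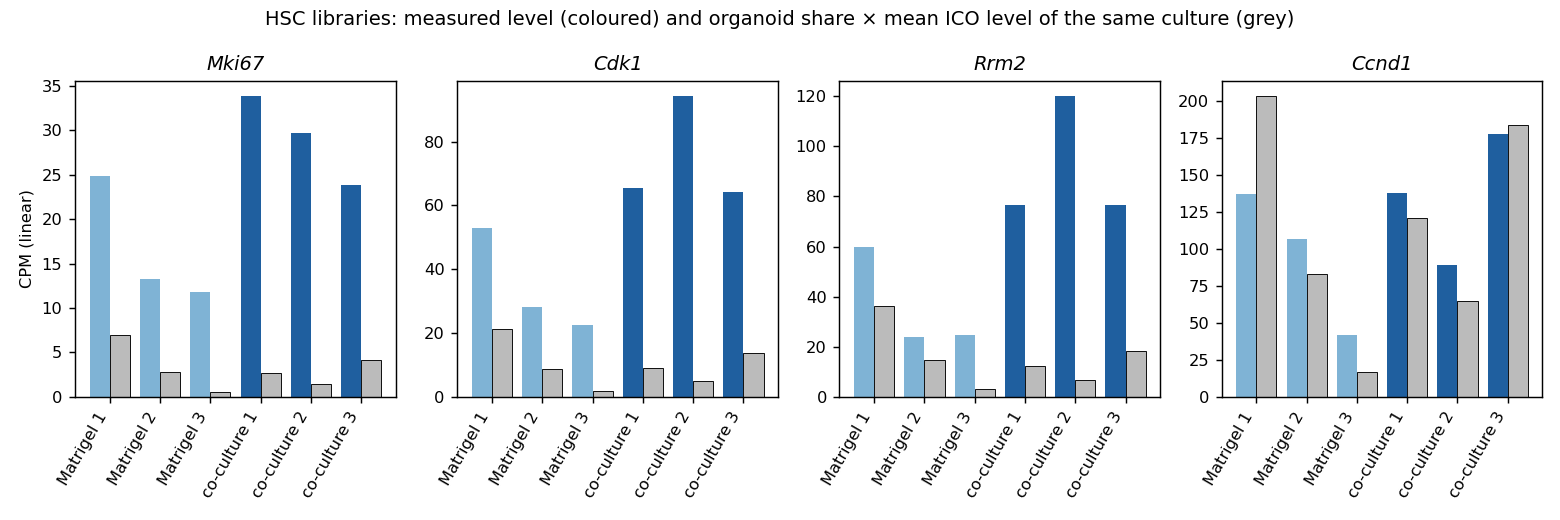
Level in CPM (coloured bars, linear axis) of Mki67, Cdk1, Rrm2 and Ccnd1 in the 6 HSC libraries from Matrigel. Grey bars are the organoid share of that library times the mean level in ICO alone (for HSC alone) or co-cultured ICO (for co-cultured HSC). The grey bars are 4.83% to 27.9% of the Mki67 level, while for Ccnd1 they exceed the level in replicate 1 of HSC alone (148%) and in co-culture replicate 3 (104%).

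Cyclin D1 had the largest such part (organoid share times ICO level, over its own level) among the 36 genes in each HSC library from Matrigel. Ccnd1 had 605, 577 and 644 CPM in ICO alone and 408, 476 and 409 CPM in co-cultured ICO, against 137, 107 and 41.6 CPM in HSC alone and 138, 88.9 and 177 CPM in co-cultured HSC. The organoid share times the ICO level amounted to 40.2% to 148% of the Ccnd1 level in HSC alone and to 72.9% to 104% in co-cultured HSC. Its change between these HSC groups was 0.56 ± 0.37 (adjusted p = 0.285). Against day 0 its changes were 0.53 alone in Matrigel (adjusted p = 0.287) and 1.09 in co-culture (adjusted p = 0.0318, called higher). With the organoid share subtracted, both fitted changes were below 0 and neither was called (adjusted p = 0.286 and 0.264). The subtracted amount exceeded the whole level in 1 library of each group, so no size is read from these changes.

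The organoids showed the opposite change. In co-cultured ICO 35 of the 36 genes were lower than in ICO alone and none was higher, where 7.96% of all 13726 genes tested were called lower and 8.59% higher. The median change was -1.10 against 0.00 over all genes, and the co-culture mean in CPM was a median of 47.1% of the mean alone (range 30.6% to 114%). All 10 replication genes and all 21 genes of G2 and mitosis were lower, with medians of -1.0 and -1.25. Kif11 (ENSMUSG00000012443), the kinesin that separates spindle poles, had 30.2, 40.1 and 31.7 CPM alone and 9.79, 8.23 and 13.1 CPM in co-culture (-1.72 ± 0.18, adjusted p = 3.41e-06). Rrm2 went from 119, 101 and 107 CPM to 40.3, 43.1 and 46.6 CPM (-1.34 ± 0.10, adjusted p = 7.89e-08). Pcna changed least among the called genes, from 154, 165 and 157 CPM to 110, 136 and 128 CPM (-0.36 ± 0.09, adjusted p = 0.0118). Each of these 3 genes had all co-cultured libraries below all libraries of ICO alone. Such a separation held for 35 genes, beside 15% of all genes.

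Among the G1/S regulators of the organoids, all 4 cyclin genes fell and E2f1 was not called. Ccne1 had 18.2, 14.0 and 13.9 CPM in ICO alone and 4.04, 5.05 and 5.99 CPM in co-culture (-1.62 ± 0.22, adjusted p = 5.72e-05). Ccnd2 went from 1402, 1222 and 1358 CPM to 619, 706 and 695 CPM (-0.99 ± 0.11, adjusted p = 4.68e-06), and Ccnd1 changed by -0.51 ± 0.10 (adjusted p = 0.00147). E2f1 had 11.9, 11.1 and 14.0 CPM alone and 16.9, 12.5 and 12.6 CPM in co-culture, groups that overlap (0.17 ± 0.19, adjusted p = 0.602). Leaving out any 1 ICO library gave 34 or 35 lower genes. The 12 stellate markers summed to at most 114 CPM in ICO libraries, against 18219 to 32677 CPM in co-cultured HSC.

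**Figure D4:**
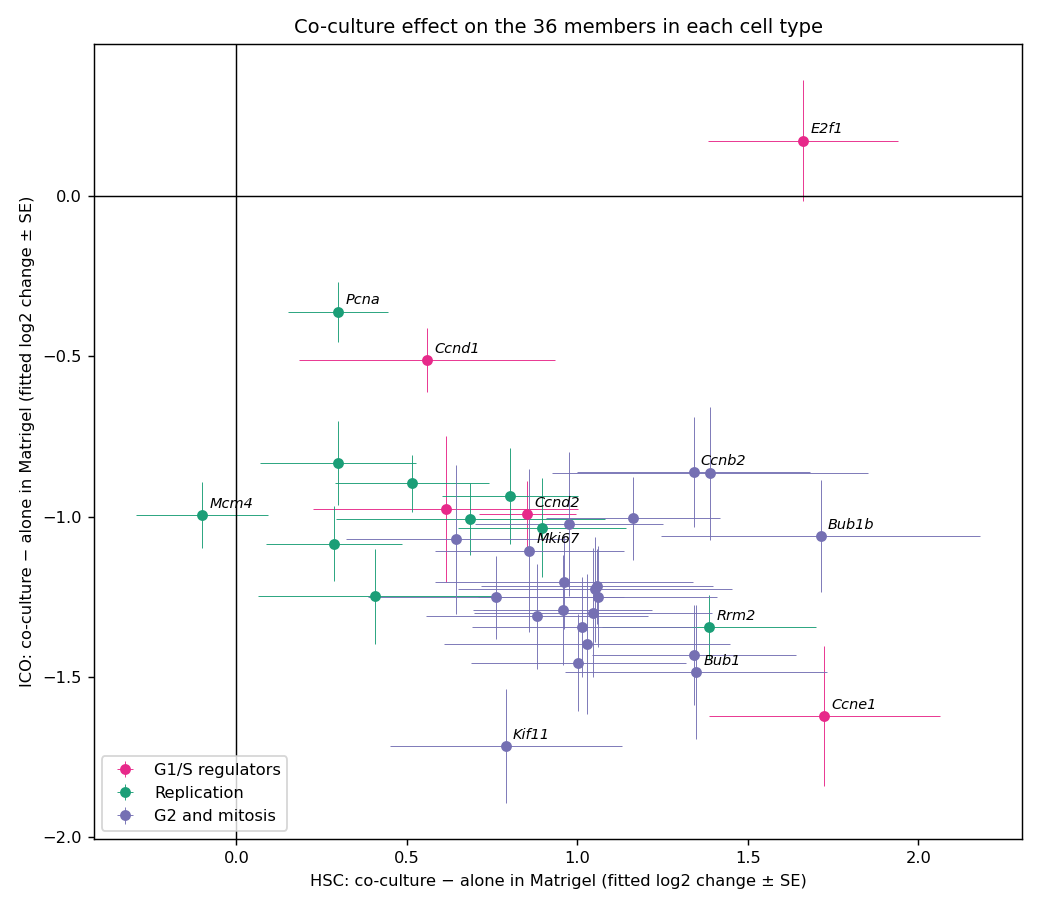
Fitted log2 change from culture alone to co-culture in HSC (horizontal axis) against that in ICO (vertical axis) for the 36 genes, coloured by class, with SE bars in both directions. Of the 36 points 34 are right of the vertical zero line and below the horizontal one, with E2f1 above the horizontal zero line and Mcm4 left of the vertical one (-0.10 in HSC).

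The change in HSC minus the change in ICO was tested as an interaction over the 12 Matrigel libraries. It was above 0 for 29 of the 36 genes and below 0 for none, where 9.08% of all 16233 genes were called above and 8.08% below 0, with a median of 2.07 against 0.01 over all genes. All 21 genes of G2 and mitosis passed, as did 5 of 10 replication genes (Mcm3, Mcm7, Rrm2, Tyms, Tk1) and 3 of 5 G1/S regulators (Ccnd2, Ccne1, E2f1). Ccne1 had the largest difference (3.26 ± 0.52, adjusted p = 0.00118), followed by Bub1 (2.75 ± 0.48, adjusted p = 0.00223) and Tpx2 (2.69 ± 0.42, adjusted p = 0.00136). Not called were Mcm2, Mcm4, Mcm5, Mcm6, Pcna, Ccne2 and Ccnd1, with differences of 0.56 to 1.60 and adjusted p of 0.059 to 0.236. In 17 alternatives, 23 of the 29 calls held, among them those of Ccne1, Bub1, Tpx2 and Rrm2.

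The order of the cell types differed between culture alone and co-culture. Alone in Matrigel, 20 genes were lower in HSC than in ICO and none higher, beside 25.8% and 30.9% of all genes (56.7% in either direction), with a median of -0.78. Ccnd1 (-2.60 ± 0.39, adjusted p = 0.000275) and Ccnd2 (-1.61 ± 0.15, adjusted p = 2.2e-06) had the largest called differences among the G1/S regulators. In co-culture 27 genes were higher in HSC than in ICO and 1 (Ccnd1) lower, beside 24% and 15.6% of all genes (39.6% in either direction), with a median of 1.24. Of the 21 genes of G2 and mitosis 20 were higher, led by Bub1 with 23.4, 34.3 and 22.6 CPM in HSC and 6.83, 5.32 and 9.94 CPM in ICO (1.90 ± 0.35, adjusted p = 0.000905). Cdc20, the activator of the anaphase-promoting complex, was the exception (0.81 ± 0.39, adjusted p = 0.122). Every co-cultured HSC library lay above every co-cultured ICO library for 28 of 36 genes and for 21 of 21 genes of G2 and mitosis, where 27.4% of all genes showed such a separation upwards. The comparison of the cell types alone rested on single libraries: 35 genes were lower without replicate 1 of HSC alone, 8 and 9 without replicates 2 and 3 of that group, 9 without ICO replicate 1 or 2, and 11 when only these 6 libraries were fitted. In co-culture the count was 18 without HSC replicate 2.

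The relation between replication and mitotic genes was described by the mean of log2(CPM + 1) over each class in each library. As CPM is not scaled by gene length, the difference between the classes is read only between groups. That difference, replication minus G2 and mitosis, was 2.66 ± 0.06 (SD, n = 3) in HSC at day 0, 1.41 ± 0.08 on plastic, 1.05 ± 0.16 alone in Matrigel and 0.52 ± 0.25 in co-cultured HSC. In ICO it was 1.10 ± 0.07 alone and 1.34 ± 0.15 in co-culture. The difference was thus largest in day 0 HSC, where both class means were the lowest of the 6 groups (4.37 ± 0.10 for replication, 1.71 ± 0.07 for G2 and mitosis). The replication genes were uneven there, since their plastic mean in CPM was 1.11 to 84.3 times their day 0 mean. The part of hepatocyte transcripts in these day 0 values was not tested. Co-cultured HSC had the highest mean of the mitotic class (5.45 ± 0.32, against 4.97 ± 0.10 on plastic and 5.29 ± 0.16 in ICO alone) but not of the replication class (5.97 ± 0.28, against 6.38 ± 0.01 and 6.39 ± 0.08). Of the genes of G2 and mitosis 15 of 21 had their highest group mean in co-cultured HSC, and of the replication genes 0 of 10 did, with 4 highest on plastic and 6 in ICO alone. No test was made on these class means, since the genes of a class are not replicates.

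**Figure D5:**
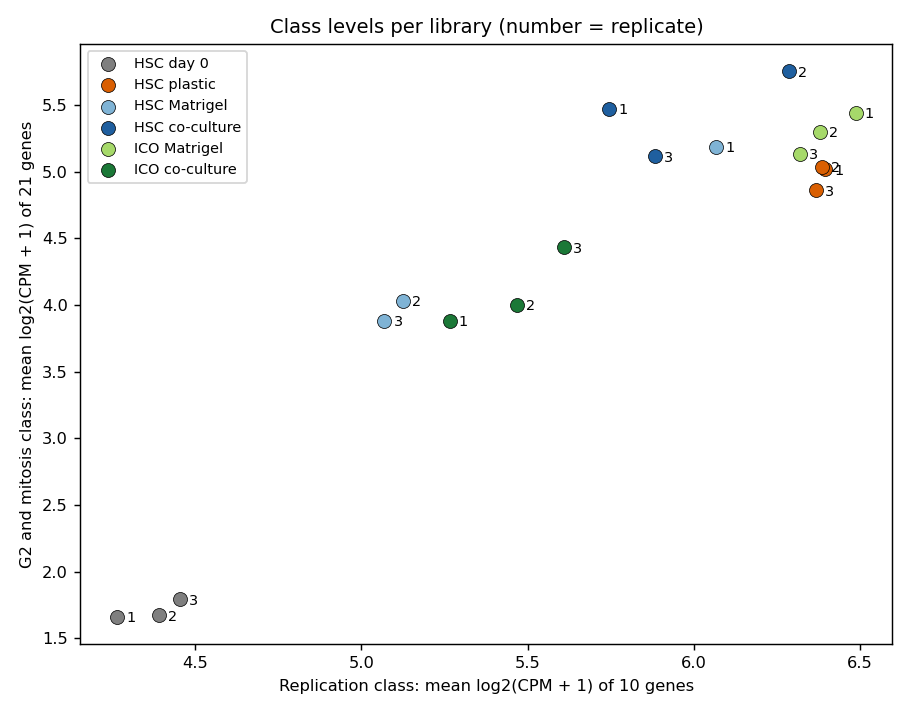
Mean log2(CPM + 1) of the 10 replication genes (horizontal axis) against that of the 21 genes of G2 and mitosis (vertical axis) in each of the 18 libraries, coloured by group and numbered by replicate. Day 0 libraries sit at the bottom, plastic HSC and ICO alone lie furthest right (means 6.38 and 6.39), and co-cultured HSC have the smallest mean difference between the classes (0.52).

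Other genes of the cell cycle were followed as a list of 134 genes outside the 36, of which 132 or 133 could be tested. In HSC on plastic 110 of 132 were higher than at day 0 and 6 lower (median 2.16), beside 27.5% and 30.5% of all genes, among them all 53 genes of the kinetochore, checkpoint and spindle, 23 of 25 genes of polymerases and the replication fork and 14 of 17 genes of origin licensing and firing. In co-cultured HSC against HSC alone, 47 of 132 were higher and 4 lower (median 0.65), beside 17.3% and 13.8% of all genes. The higher genes included 26 of 53 kinetochore and spindle genes, 6 of 25 polymerase and fork genes and 1 of 17 origin genes (Dbf4, the partner of the origin-firing kinase Cdc7). In co-cultured ICO against ICO alone, 90 of 133 were lower and 4 higher (median -0.81), beside 7.96% and 8.59% of all genes, with 49 of 53, 17 of 25 and 13 of 17 lower in the same lists. Foxm1 and Mybl2, transcription factors of the mitotic wave, rose on plastic by 3.42 ± 0.69 (adjusted p = 0.000989) and 4.58 ± 0.62 (adjusted p = 2.78e-05). In the organoids Mcm10, a replication initiation factor, had 15.4, 13.5 and 13.5 CPM alone and 3.30, 5.88 and 3.49 CPM in co-culture (-1.77 ± 0.24, adjusted p = 7.48e-05).

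The inhibitors of cyclin-dependent kinases did not move as a block. Cdkn1a, which encodes p21, had 58.3, 53.5 and 46.4 CPM at day 0 and 1069, 1148 and 1219 CPM on plastic, a rise of 4.5 ± 0.22 (adjusted p = 3.22e-09) in the same libraries in which 34 of the 36 cell cycle genes rose. In HSC alone in Matrigel it had 99.6, 64.7 and 55.2 CPM, and in co-cultured HSC 219.7, 313 and 301 CPM, again without overlap (1.97 ± 0.20, adjusted p = 8.21e-06). Cdkn2b, Cdkn2d and Cdkn3 were higher in co-cultured HSC as well, by 1.60 ± 0.33, 0.92 ± 0.14 and 1.34 ± 0.35. Cdkn1b, which encodes p27, went the other way in HSC, with 27.3, 46.0 and 41.9 CPM alone and 4.73, 12.1 and 21.4 CPM in co-culture (-1.53 ± 0.39, adjusted p = 0.0107). Mean levels in ICO alone were above those in HSC alone for Cdkn2b (127 against 23.2 CPM), Cdkn1a (197 against 73.2) and Cdkn3 (10.5 against 5.36). They were below for Cdkn2d (14.8 against 24.8 CPM) and Cdkn1b (13.4 against 38.4). The part of the organoid share in these inhibitor changes in HSC was not tested. In organoids Cdkn1b rose by 0.56 ± 0.16 (adjusted p = 0.0256) and Cdkn2d by 0.68 ± 0.19 (adjusted p = 0.0175), while Cdkn3 fell by 1.16 ± 0.24 (adjusted p = 0.00256). The change in HSC minus that in ICO was -2.19 ± 0.54 for Cdkn1b (adjusted p = 0.0164) and 1.64 ± 0.27 for Cdkn1a (adjusted p = 0.0014).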

How the data were processed

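The authors deposited estimated counts per gene for the 18 libraries, which need not be whole numbers. Per the submitters' processing notes, kallisto 0.46.1, DESeq2 1.36.0 and the build GRCm39 are named, with no role stated, while the annotation release and any filters are not named by any label or header. Smart-seq2 cDNA carries no molecular identifiers and, per the labels' protocols, no strand mark is described, so reads of overlapping genes cannot be separated.

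Counts were rounded and tested in R 4.3.3 with edgeR 4.0.16 (robust quasi-likelihood test, TMM scaling, default filter on low counts), with Benjamini-Hochberg adjustment over all genes tested and a threshold of 0.05. Comparisons among HSC groups came from 1 fit of 12 HSC libraries, the ICO comparison from 6 libraries, and comparisons across cell types and the interaction from the 12 Matrigel libraries. Each SE was derived from the test itself (the size of the log2 change over the root of F), so it carries no information beyond the test. CPM came from 1 TMM scaling of the 18 libraries, and levels are given as mean ± SD over 3 libraries. The test was checked on simulated counts.

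The organoid share of an HSC library is the median, over 16 cholangiocyte genes with at least 100 CPM in ICO and under 5 CPM at day 0 and on plastic, of its CPM over an ICO mean. That mean was of co-cultured ICO for co-cultured HSC and of ICO alone for all other HSC libraries. The alternatives comprised RLE scaling, testing without a filter, DESeq2 1.42.0, a fit of only the libraries compared, the replicate number as a block, each library left out in turn, and subtraction of the organoid share. The genes with values in every library were 12 chosen for their role, plus in each comparison up to 2 called genes per class and direction with the largest change. From the other cell cycle lists the rule took up to 2 called genes per list and direction whose higher group reached 5 CPM, and all called inhibitors. The named examples are drawn from these, and the 5 promoters, Mcm6 on plastic and Clec4f were chosen after their values were seen. The 36 genes, the lists and the alternatives were chosen with earlier results of these data known. Promoter windows are from RefSeq on GRCm38.p6, and no window was at hand for 8 of the 36 genes. Same-numbered libraries did not deviate together in all pairs, so the number was not used as a block.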

Additional observations from a re-analysis of the deposited data

Results flagged for a closer look

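For 29 of the 36 genes the change from culture alone to co-culture in HSC differed from that in ICO by the interaction test (edgeR, adjusted p under 0.05), with HSC minus ICO above 0 in each. Of all 16233 genes tested, 9.08% were called above 0 and 8.08% below 0. The differences below are on the log2 scale. Among the G1/S regulators it was 3.26 for Ccne1, 1.75 for Ccnd2 and 1.39 for E2f1. Among the replication genes it was 2.64 for Rrm2, 1.83 for Tyms, 1.65 for Tk1, 1.32 for Mcm7 and 1.28 for Mcm3.

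The other 21 are the genes of G2 and mitosis. Spindle checkpoint and spindle genes had differences of 2.75 (Bub1), 2.69 (Tpx2), 2.68 (Bub1b), 2.42 (Kif11), 2.22 (Kif20a), 2.11 (Prc1) and 1.63 (Nusap1). For mitotic kinases and cyclins they were 2.33 (Aurkb), 2.27 (Plk1), 2.25 (Aurka), 2.19 (Ccna2), 2.11 (Ccnb2), 2.07 (Cdk1) and 2.07 (Ccnb1). Genes of ubiquitin ligation and anaphase had 2.37 (Ube2c) and 1.92 (Cdc20). Chromosome and kinetochore genes had 2.18 (Top2a), 2.16 (Cenpe), 2.15 (Birc5), 1.91 (Cenpf) and 1.88 (Mki67).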

How the results depend on the processing

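Replicates of 3 libraries, the cholangiocyte transcripts of unknown source in HSC libraries from Matrigel and the unknown meaning of the replicate numbers limit these results. Counts of called genes kept within 1.5 times in 103 of 124 recomputations. Fitting only the libraries compared gave 15 genes for co-cultured against plastic HSC, 9 for co-cultured HSC against HSC alone and 11 for HSC against ICO alone. Leaving out each library in turn gave 10 to 31 for Matrigel against plastic, 3 to 7 for co-culture against plastic, 7 to 34 for co-cultured HSC against HSC alone, 8 to 35 for HSC against ICO alone and 18 to 28 for HSC against ICO in co-culture. For the other comparisons these ranges were 33 to 34 (plastic against day 0), 28 to 31 (Matrigel against day 0), 30 to 31 (co-culture against day 0), 34 to 35 (ICO) and 24 to 35 (interaction). Apart from the smaller fits, the cause of these shifts was not tested. The share of all genes called in each recomputation is not given here, so shifts over all genes and shifts of the set cannot be told apart.

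Same-numbered libraries did not pair: for HSC in co-culture and alone their deviations correlated by 0.06, -0.21 and -0.44 over 11574 genes. Titles of co-cultured HSC and co-cultured ICO share a letter and number, so these libraries could come from shared cultures, which the labels do not state. Their deviations correlated by 0.061, 0.060 and -0.082. With the replicate block the counts were 34, 30 and 30 against day 0 (plastic, Matrigel, co-culture), 17 and 8 against plastic (Matrigel, co-culture), 22 for co-cultured HSC against HSC alone, 35 for ICO, 18 and 26 for HSC against ICO (alone, co-culture) and 27 for the interaction. A block fitted to only the libraries compared, added after seeing the data, gave 23 and 29 for the comparisons of HSC with ICO.

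Of the changes whose direction turned, Ccnd1 in co-culture against day 0 was the one called (1.09), and the cause was not tested. Subtracting the organoid share gave Ccnd1 changes of -1.83 (Matrigel against day 0), -1.83 (co-culture against day 0), -2.18 (Matrigel against plastic), -2.18 (co-culture against plastic) and -0.0017 (co-cultured HSC against HSC alone), none of them called and no exact size since 2 libraries fell to 0, Ccne1 -0.092 (Matrigel against day 0), and Cdk1 0.070 and Birc5 0.20 (co-culture against plastic). Ccnd2 in co-culture against day 0 was -0.036 with RLE scaling, -0.032 without a filter, -0.037 with DESeq2 and -0.044 with only the libraries compared. Leaving out each library in turn, it ran from -0.046 (without day 0 replicate 2) to 0.058. Against day 0 in Matrigel these ranges were -0.45 to 0.40 for Ccne1 and -0.20 to 0.32 for Mcm2 (both lowest without Matrigel replicate 1), and -0.31 to 0.020 for Pcna (highest without Matrigel replicate 2). In Matrigel against plastic they were -0.18 to 0.49 for Ccnd1 and -0.50 to 0.078 for Mki67, and for Birc5 in co-culture against plastic -0.31 to 0.0095. RLE scaling moved the median of all genes by at most 0.066 in size. With a pseudocount of 0.25 the class difference of day 0 minus plastic was 1.58 instead of 1.25.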
